A study of Mus musculus with 10 samples.

Results

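The genes described are 10 that encode the laminins, nidogens and heparan sulphate proteoglycans of the basement membrane, as far as aortic smooth muscle cultures express them: the laminin chain genes Lama2, Lama4, Lama5, Lamb1, Lamb2 and Lamc1, the nidogen genes Nid1 and Nid2, the perlecan gene Hspg2 and the agrin gene Agrn. They were taken by symbol from the expression table, which holds 36144 genes, and all 10 were found. All 10 also passed the filter on low values, a mean of at least 1 TPM (an estimated abundance that allows for transcript length and has the same total in every library) over the 6 libraries, as did 13131 genes in all.

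Smooth muscle cells were grown from the media of the aorta, taken from male mice aged 8 weeks, and were used between passages 2 and 7. RNA was measured in 3 libraries from mice with smooth muscle-specific Adamts7 overexpression, which carry the Myh11-Cre-ERT2 driver, and in 3 libraries from wild-type mice, each library from its own mouse. Myh11-Cre-ERT2 is a Cre recombinase active in smooth muscle and switched on by tamoxifen; the labels name no driver for the wild-type mice, and neither tamoxifen treatment nor the passage of a library is given in the sources used here, so these cannot be told apart from the overexpression. Adamts7, which encodes a secreted metalloprotease, averaged 84.5 ± 12.4 TPM in overexpression cultures and 6.82 ± 1.20 TPM in wild-type cultures (SD, n = 3 each). Read number is unknown, as TPM do not keep it.

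A basement membrane is the thin sheet of matrix that surrounds each smooth muscle cell and underlies endothelium. Laminins are trimers of 1 alpha, 1 beta and 1 gamma chain that assemble into a network at the cell surface; the alpha chain binds the receptors, integrins and dystroglycan, and so sets what the trimer does. Nidogens link the laminin network to the collagen IV network, and perlecan and agrin are large proteoglycans whose heparan sulphate chains hold growth factors. In vessels, the alpha4 and alpha5 chains are the laminins best known from endothelium, and the alpha2 chain is best known from muscle and nerve.

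In overexpression cultures Lama2 was higher than in wild type, and Nid1, Hspg2 and Lama5 were lower, but by limma none of the 10 genes passed an adjusted p of 0.05 over all genes tested. Of all genes tested, 0.0152% passed it. At an unadjusted p under 0.05 the count was 3 of 10 lower (Nid1, Hspg2 and Lama5), where 8.94% of all genes tested were lower, and 1 of 10 higher (Lama2), where 10.6% were higher. The median log2 fold change of the 10 genes was -0.14, against -0.01 over all genes tested. A value below 0 was found for 8 of the 10, and for 6791 of the 13131 genes tested. With libraries weighted by quality, 1 of the 10 passed on the higher side (Lama2), where 11.4% of all genes tested passed, and 3 on the lower side (Nid1, Hspg2 and Lama5), where 9.42% passed.

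The promoters of these 4 genes are shown because the genes differed in opposite directions, with Lama2 on the higher side and the others on the lower side. Each window holds 250 bases before and 50 bases after a RefSeq transcript start in GRCm38.p6, 5′ to 3′ on the strand of the gene. Capitals mark GC boxes (GGGCGG on either strand) and, in Lama2, also a CArG box and, in Nid1, also a TEAD site (GGAATG).
Lama2, chr10:27616893-27617192, minus strand: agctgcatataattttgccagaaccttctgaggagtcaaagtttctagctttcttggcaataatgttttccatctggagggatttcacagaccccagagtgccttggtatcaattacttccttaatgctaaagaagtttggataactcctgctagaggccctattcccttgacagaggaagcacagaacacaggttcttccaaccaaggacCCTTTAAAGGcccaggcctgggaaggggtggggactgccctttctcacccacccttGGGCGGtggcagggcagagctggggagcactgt
Nid1, chr13:13437352-13437651, plus strand: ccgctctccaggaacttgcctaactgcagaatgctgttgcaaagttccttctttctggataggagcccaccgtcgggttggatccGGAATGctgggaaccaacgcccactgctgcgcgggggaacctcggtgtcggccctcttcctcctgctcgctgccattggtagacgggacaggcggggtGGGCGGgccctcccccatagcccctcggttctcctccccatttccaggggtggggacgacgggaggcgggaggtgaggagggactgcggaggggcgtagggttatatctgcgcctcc
Hspg2, chr4:137468553-137468852, plus strand: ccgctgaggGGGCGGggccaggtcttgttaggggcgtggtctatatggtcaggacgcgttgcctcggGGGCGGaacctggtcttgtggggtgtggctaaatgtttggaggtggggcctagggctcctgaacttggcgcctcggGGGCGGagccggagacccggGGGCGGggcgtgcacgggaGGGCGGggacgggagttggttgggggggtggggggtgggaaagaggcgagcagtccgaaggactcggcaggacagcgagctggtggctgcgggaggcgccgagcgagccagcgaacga
Lama5, chr2:180225810-180226109, minus strand: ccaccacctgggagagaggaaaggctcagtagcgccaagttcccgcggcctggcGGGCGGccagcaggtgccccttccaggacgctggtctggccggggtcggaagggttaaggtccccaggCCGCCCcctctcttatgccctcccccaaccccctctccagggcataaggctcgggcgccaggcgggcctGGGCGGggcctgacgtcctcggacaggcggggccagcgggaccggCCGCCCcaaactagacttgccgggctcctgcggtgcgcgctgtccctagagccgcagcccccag

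The Lama2 window differed in composition from the other 3. It held 1 CpG dinucleotide and 50.3% G and C, against 20 CpG and 64.7% in Nid1, 27 and 70.3% in Hspg2 and 24 and 72.7% in Lama5, where the median of 32851 promoters of the same length was 7 CpG and 52.7%. Low values were not particular to Lama2, as the Lamb2 window, not shown, held 4 CpG and 44.0%. The Lamb1 window held 18 and 63.7%, and the Agrn windows 42 and 83.3% and 11 and 61.3%. The log2 fold changes of Lamb2, Lamb1 and Agrn were -0.07, -0.16 and -0.09. A link between composition and direction was not tested. A GC box, the letters bound by SP and KLF factors, occurred 1 time in Lama2 and in Nid1, 5 times in Hspg2 and 4 times in Lama5; 35.7% of all promoters held at least 1. The Lama2 window held a CArG box, the element bound by serum response factor in smooth muscle genes, as CCTTTAAAGG from 39 bases before the start, and 1.6% of all promoters held one. The transcript start used for Lama2 lies 249 bases inside the annotated gene, so another start is annotated upstream of it. Of the 7 member genes with a promoter in the reference, 1 held a CArG box, 6 a GC box, 1 a TEAD site (14.7% of all promoters), and 0 an AP-1 site (TGANTCA, 7.8%), an E-box (CACGTG, 7.2%) or a TATA box (TATAAA, 13.6%). Both strands were searched, and no match overlapped another in the 4 windows shown. The matches are letters in a window and no measure of binding.

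Perlecan and nidogen-1 were the most abundant of the 10 RNAs, and Lama2 and Nid2 the least. Mean levels in overexpression cultures ran from 244 TPM for Hspg2 through 174 for Nid1, 122 for Lamb1, 87.2 for Lamb2, 68.2 for Lamc1, 31.9 for Lama4, 29.0 for Lama5, 24.1 for Agrn and 10.8 for Nid2 to 9.86 for Lama2. In wild-type cultures the mean levels were 296 TPM for Hspg2, 228 for Nid1, 136 for Lamb1, 91.7 for Lamb2, 74.0 for Lamc1, 39.5 for Lama5, 37.7 for Lama4, 25.7 for Agrn, 9.47 for Nid2 and 5.39 for Lama2. The order was shared apart from Lama4 and Lama5, which changed places. Ranges of neighbours overlapped in overexpression cultures for Lamb2 and Lamc1, Lama4 and Lama5, Lama5 and Agrn, and Nid2 and Lama2, and for no neighbours in wild-type cultures. By mean wild-type TPM among 36144 genes, Hspg2 was of rank 499 and Lama2 of rank 10518.

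**Figure D1:**
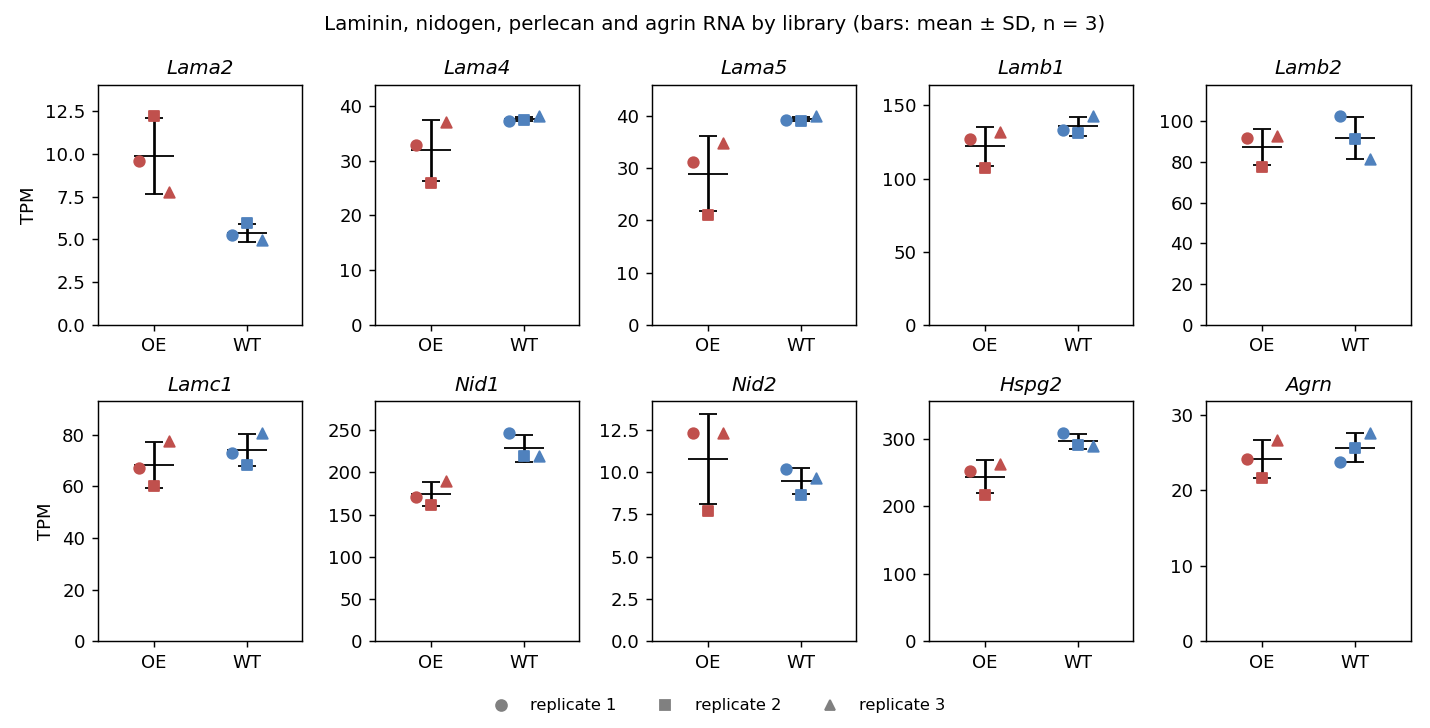
TPM of each of the 10 genes in each library (points; shape gives the replicate), with mean and SD (bars, n = 3), for overexpression (OE) and wild-type (WT) cultures, each panel on its own linear axis from 0. The 3 overexpression libraries sit above every wild-type library for Lama2 and below every wild-type library for Lama4, Lama5, Nid1 and Hspg2, and overlap them for the other 5 genes.

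Among the laminin alpha chains, Lama2, which encodes the alpha2 chain of muscle laminin, stood at 9.58, 12.2 and 7.79 TPM in overexpression replicates 1, 2 and 3, against 5.25, 5.96 and 4.95 TPM in wild-type replicates 1, 2 and 3. All 3 overexpression libraries lay above every wild-type library, with replicate 2 highest. The mean was 9.86 ± 2.22 TPM in overexpression cultures and 5.39 ± 0.52 TPM in wild-type cultures (SD, n = 3 each), a ratio of 1.83. The log2 fold change was 0.75 ± 0.16 (SE) on the log2(TPM + 1) scale (limma unadjusted p = 0.00221, adjusted p = 0.131). Without overexpression replicate 3 it was 0.89 and passed (limma adjusted p = 0.0205), in a fit that called 3.99% of all genes higher; the other libraries left out gave adjusted p from 0.172 to 0.354. Lama2 spans chromosome 10 from 26981285 to 27617191 in GRCm38.p6.

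Lama5, the gene of the alpha5 chain found in endothelial and smooth muscle basement membranes, stood at 31.2, 21.0 and 34.8 TPM in overexpression libraries, against 39.3, 39.1 and 40.01 TPM in the wild-type libraries. The groups did not overlap, and overexpression replicate 2 was far below the rest. The log2 fold change was -0.46 ± 0.17 (SE; limma unadjusted p = 0.0281, adjusted p = 0.208). It was -0.25 without overexpression replicate 2, and its unadjusted p exceeded 0.05 without any 1 wild-type library (0.0654, 0.0615 and 0.0685 without wild-type replicates 1, 2 and 3). Lama4, which encodes the alpha4 chain, stood at 32.8, 25.9 and 37.0 TPM in overexpression libraries, against 37.4, 37.5 and 38.2 TPM in the wild-type libraries. Its groups did not overlap either, but overexpression replicate 3 lay within 1 TPM of the lowest wild-type library. The log2 fold change of -0.25 ± 0.12 (SE) did not pass (limma unadjusted p = 0.0855, adjusted p = 0.317), and it was -0.11 without overexpression replicate 2.

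The groups did not overlap for 1 gene of the 10 on the higher side, where 14.3% of all genes tested did not, and for 4 genes on the lower side (Lama4, Lama5, Nid1 and Hspg2), where 12.9% did not.

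The makeup of the alpha chain RNA was set out within each library, a measure that a scaling factor for a whole library cannot alter. Lama2 made up 12.9%, 20.4% and 9.67% of the summed TPM of Lama1 to Lama5 in overexpression replicates 1, 2 and 3, against 6.34%, 7.09% and 5.89% in wild-type replicates 1, 2 and 3. The share of Lama5 was 41.9%, 35.1% and 43.2% in overexpression libraries, against 47.4%, 46.5% and 47.6% in wild-type libraries. The groups did not overlap for either share. The difference, overexpression minus wild type, was 7.89 percentage points for Lama2 and -7.09 for Lama5, and without overexpression replicate 2 it was 4.83 and -4.60. The share of Lama4 was 44.5% ± 1.34 in overexpression cultures and 45.0% ± 0.44 in wild-type cultures (SD, n = 3 each), and its libraries overlapped. The embryonic and epithelial chain genes Lama1 and Lama3 averaged 0.503% and 0.645% of alpha chain TPM in overexpression cultures and 0.601% and 0.822% in wild-type cultures. The shares are given as values per library and were not tested.

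**Figure D2:**
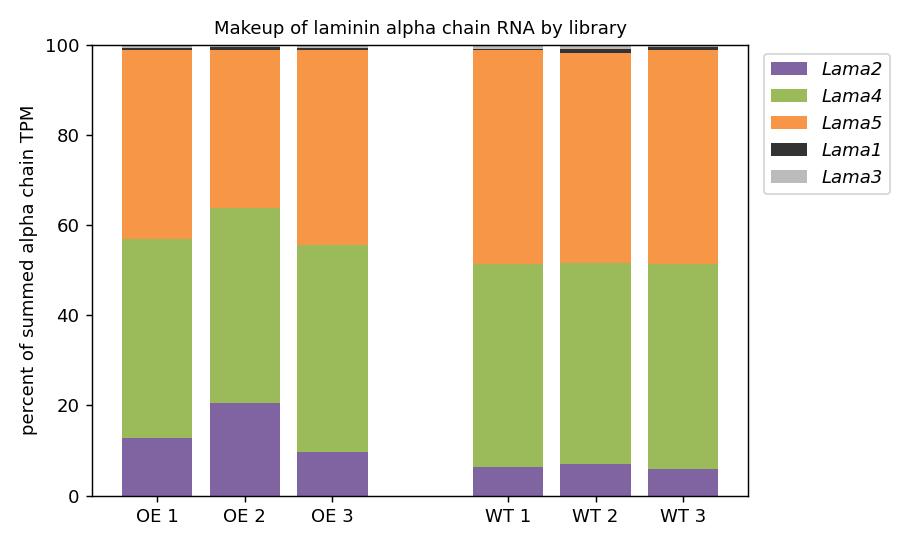
Share of each alpha chain gene (percent, linear axis from 0) in the summed TPM of Lama1 to Lama5, 1 bar per library, with overexpression (OE) libraries left of wild-type (WT) libraries. Lama2 takes 9.67% to 20.4% of the bar in overexpression libraries and 5.89% to 7.09% in wild-type libraries, while Lama4 takes 43.3% to 45.9% in overexpression libraries and 44.5% to 45.4% in wild-type libraries.

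The beta and gamma chain genes did not differ beyond the spread between libraries. Lamb1, the gene of the beta1 chain, stood at 127, 107 and 132 TPM in overexpression libraries, against 133, 131 and 143 TPM in wild-type libraries, a log2 fold change of -0.16 (95% interval -0.36 to 0.05; limma adjusted p = 0.368). Lamb2, the gene of the beta2 chain of arterial and synaptic laminin, stood at 91.7, 77.2 and 92.7 TPM in overexpression libraries, against 102, 91.3 and 81.3 TPM in wild-type libraries, a log2 fold change of -0.07 (95% interval -0.32 to 0.18; limma adjusted p = 0.758). Lamc1, the gene of the gamma1 chain, stood at 66.9, 60.1 and 77.5 TPM in overexpression libraries, against 72.8, 68.4 and 80.7 TPM in wild-type libraries, a log2 fold change of -0.12 (95% interval -0.37 to 0.13; limma adjusted p = 0.570). For all 3 genes the libraries of the genotypes overlapped and replicate 2 was the lowest overexpression library. The log2 fold change of Lamb2 was above 0, at 0.01, without overexpression replicate 2 and without wild-type replicate 1, and was 0.03 with libraries weighted by quality.

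Lamb2 made up 41.7% ± 0.33 of Lamb1 and Lamb2 TPM in overexpression cultures and 40.3% ± 3.65 in wild-type cultures (SD, n = 3 each), with overlapping libraries. Summed over all chains of a class, alpha chain RNA was 0.339 ± 0.017 of beta chain TPM in overexpression cultures and 0.366 ± 0.014 in wild-type cultures, and beta chain RNA was 2.89 ± 0.14 times gamma chain RNA in overexpression cultures and 2.89 ± 0.23 times in wild-type cultures (SD, n = 3 each). Summed alpha chain TPM were 74.5, 59.8 and 80.6 in overexpression libraries, below the 82.9, 84.1 and 84.1 of wild-type libraries. The epithelial chain gene Lamb3, outside the 10, averaged 1.46 TPM in overexpression and 1.29 TPM in wild-type cultures (limma adjusted p = 0.797), while Lama1, Lama3 and Lamc3 were too low to be tested.

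Of the nidogens, Nid1, which encodes a linker protein that binds the gamma1 laminin chain, stood at 170, 162 and 189.8 TPM in overexpression replicates 1, 2 and 3, against 247, 219 and 219.8 TPM in wild-type replicates 1, 2 and 3. All 3 overexpression libraries lay below every wild-type library. The mean was 174 ± 14.4 TPM in overexpression cultures and 228 ± 15.9 TPM in wild-type cultures (SD, n = 3 each), a ratio of 0.761. The log2 fold change of -0.39 ± 0.08 (SE) had the smallest p of the 10 genes (limma unadjusted p = 0.00173, adjusted p = 0.131). Without overexpression replicate 3 it was -0.46 and passed (limma adjusted p = 0.0241), in a fit that called 2.31% of all genes lower; with each other library left out the adjusted p was 0.174 to 0.354. Nid1 spans chromosome 13 from 13437602 to 13512275 in GRCm38.p6.

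Nid2, the second nidogen gene, stood at 12.3, 7.66 and 12.3 TPM in overexpression libraries, against 10.2, 8.63 and 9.62 TPM in wild-type libraries. Overexpression replicates 1 and 3 lay above every wild-type library and replicate 2 below every one. The log2 fold change was 0.14 (95% interval -0.28 to 0.56; limma adjusted p = 0.701), and without overexpression replicate 2 it was 0.35 (unadjusted p = 0.0131, adjusted p = 0.209). It was 0.04 without overexpression replicate 1, 0.04 without replicate 3 and 0.08 without wild-type replicate 2. The share of Nid2 in nidogen TPM was 6.74%, 4.52% and 6.08% in overexpression libraries, against 3.96%, 3.80% and 4.19% in wild-type libraries, with no overlap. Nid1 is part of the nidogen TPM, so a lower Nid1 alone raises this share.

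Of the proteoglycans, Hspg2, the gene of the perlecan core protein, stood at 252, 217 and 263 TPM in overexpression libraries, against 309, 290.3 and 289 TPM in wild-type libraries. All 3 overexpression libraries lay below every wild-type library. The mean was 244 ± 24.4 TPM in overexpression cultures and 296 ± 11.1 TPM in wild-type cultures (SD, n = 3 each). This is a log2 fold change of -0.28 ± 0.08 (SE; limma unadjusted p = 0.0103, adjusted p = 0.151). Agrn, the gene of agrin, stood at 24.1, 21.6 and 26.7 TPM in overexpression libraries, against 23.8, 25.6 and 27.6 TPM in wild-type libraries. Those libraries overlapped, and the log2 fold change was -0.09 (95% interval -0.32 to 0.15; limma adjusted p = 0.664). Both proteoglycan genes lie on chromosome 4, Hspg2 from 137468751 to 137570630 and Agrn from 156165290 to 156197533 in GRCm38.p6.

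**Figure D3:**
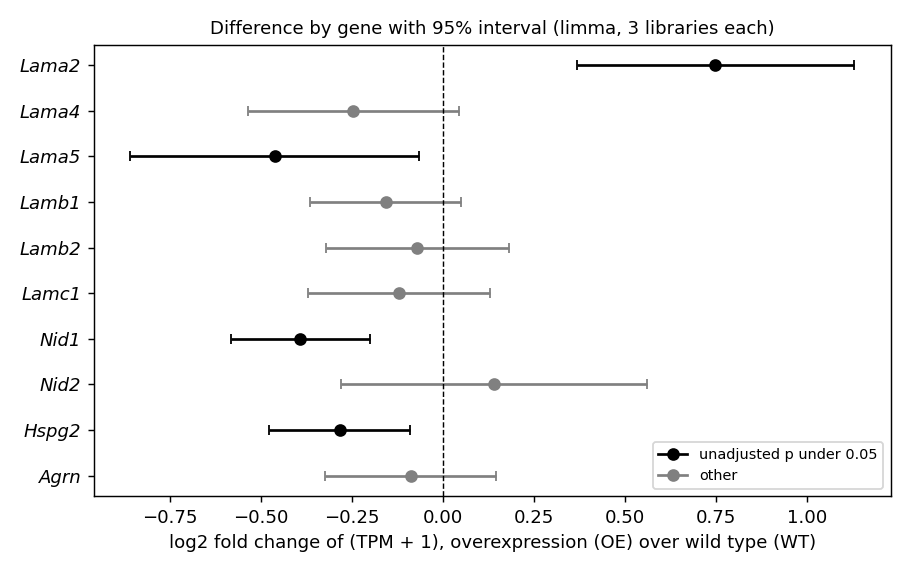
log2 fold change of (TPM + 1), overexpression over wild type, for each gene (points) with its 95% interval from limma (bars, 3 libraries per genotype); black marks an unadjusted p under 0.05. The interval of Lama2 lies above 0, those of Lama5, Nid1 and Hspg2 lie below 0, and the other 6 include 0.

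The SD between libraries was larger in overexpression than in wild-type cultures for 8 of the 10 genes. Overexpression replicate 2 was the lowest of all 6 libraries for 9 of 10 genes and the highest for the tenth, Lama2. Overexpression replicate 3 was the overexpression library nearest the wild-type mean for 8 of 10 genes, and replicate 2 the farthest for 9 of 10. Replicate 3 also stood between the genotypes over all genes, with a score of -0.67 on the first principal component (51.4% of the variance), against 18.6 and 39.4 for overexpression replicates 1 and 2 and -20.3 to -16.8 for wild type. Replicate 2 stood farthest from wild type there too. The share of all genes with such SDs and library orders was not counted. The counts are thus not shown to be particular to the 10 genes. Relative to wild type, the median of the 10 genes on the log2(TPM + 1) scale was -0.12 in overexpression replicate 1, -0.31 in replicate 2 and -0.00051 in replicate 3.

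Summed markers of several other cell types also stood apart between the genotypes, although no gene of any marker list passed an adjusted p of 0.05 by limma. At an unadjusted p under 0.05, 8.94% of all genes tested were lower and 10.6% higher. The marker counts in this paragraph stand beside these shares. The 12 endothelial markers summed to 2390 to 3940 TPM in overexpression libraries, against 4656 to 5168 TPM in wild-type libraries, with 9 of 12 lower at an unadjusted p under 0.05 and none at 0. Their median relative to wild type was -0.41 in overexpression replicate 1, -0.90 in replicate 2 and -0.21 in replicate 3. This order of libraries was shared by 8 of the 10 genes, all but Lama2 and Nid2. The medians of the basement membrane collagens and of the laminin receptors shared it. Those of the other lists on basement membrane genes did not. Replicates 2 and 3 also stood farthest from and nearest to wild type on the first principal component. The share of all genes with this order was not counted. The 14 macrophage markers summed to 1097 to 3514 TPM in overexpression libraries, against 450.1 to 673 TPM in wild-type libraries, all 14 higher at an unadjusted p under 0.05. The 10 smooth muscle markers summed to 4651 to 6282 TPM in overexpression libraries, against 4034 to 4154 TPM in wild-type libraries, with 7 of 10 higher at an unadjusted p under 0.05. Acta2, smooth muscle actin, averaged 1764 TPM in overexpression and 1249 TPM in wild-type cultures. By mean, the smooth muscle markers summed to 4091 TPM in wild-type cultures and the endothelial markers to 4940 TPM. In overexpression cultures these means were 5344 TPM for smooth muscle and 3198 TPM for endothelial markers. Sums over different lists do not give the share of each cell type. Emcn, an endothelial sialomucin, was at 1153 TPM in overexpression and 2046 TPM in wild-type cultures. The 6 pericyte markers summed to 33.9 to 121 TPM in overexpression and 24.2 to 26.3 TPM in wild-type libraries. Of 3 tested, 2 were higher and 0 lower at an unadjusted p under 0.05. The other, Notch3, averaged 5.58 TPM in overexpression and 7.14 TPM in wild-type cultures. Of the 121 TPM in overexpression replicate 2, Rgs5 alone made up 64.3 TPM. The 6 Schwann cell markers summed to 4.00 to 17.8 TPM in overexpression and 2.07 to 3.32 TPM in wild-type libraries, with the Schwann factor gene Sox10 listed at 0 in all 3 overexpression libraries. Of the 17.8 TPM in overexpression replicate 2, S100b alone made up 14.0 TPM. Of the 6 Schwann cell markers, 4 averaged under 1 TPM. Of 2 tested, 0 were higher or lower at an unadjusted p under 0.05. The 8 fibroblast markers summed to 639 to 1002 TPM in overexpression and 989 to 1160 TPM in wild-type libraries, with 1 higher and 2 lower of 6 tested at an unadjusted p under 0.05. Most of that sum was Cd34, at a mean of 741 TPM in overexpression and 1001 TPM in wild-type cultures. The 8 markers of mesothelium and epithelium summed to 122 to 173 TPM in overexpression and 166 to 184 TPM in wild-type libraries, with 1 higher and 1 lower of 3 tested. Most of that sum was Krt18, at a mean of 109 TPM in overexpression and 153 TPM in wild-type cultures. The 1 higher was Krt19, at a mean of 35.1 TPM in overexpression and 20.3 TPM in wild-type cultures. The part of these cell types in the values of the 10 genes was not tested. In bulk RNA, fewer cells of a type and less RNA per cell cannot be told apart.

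**Figure D4:**
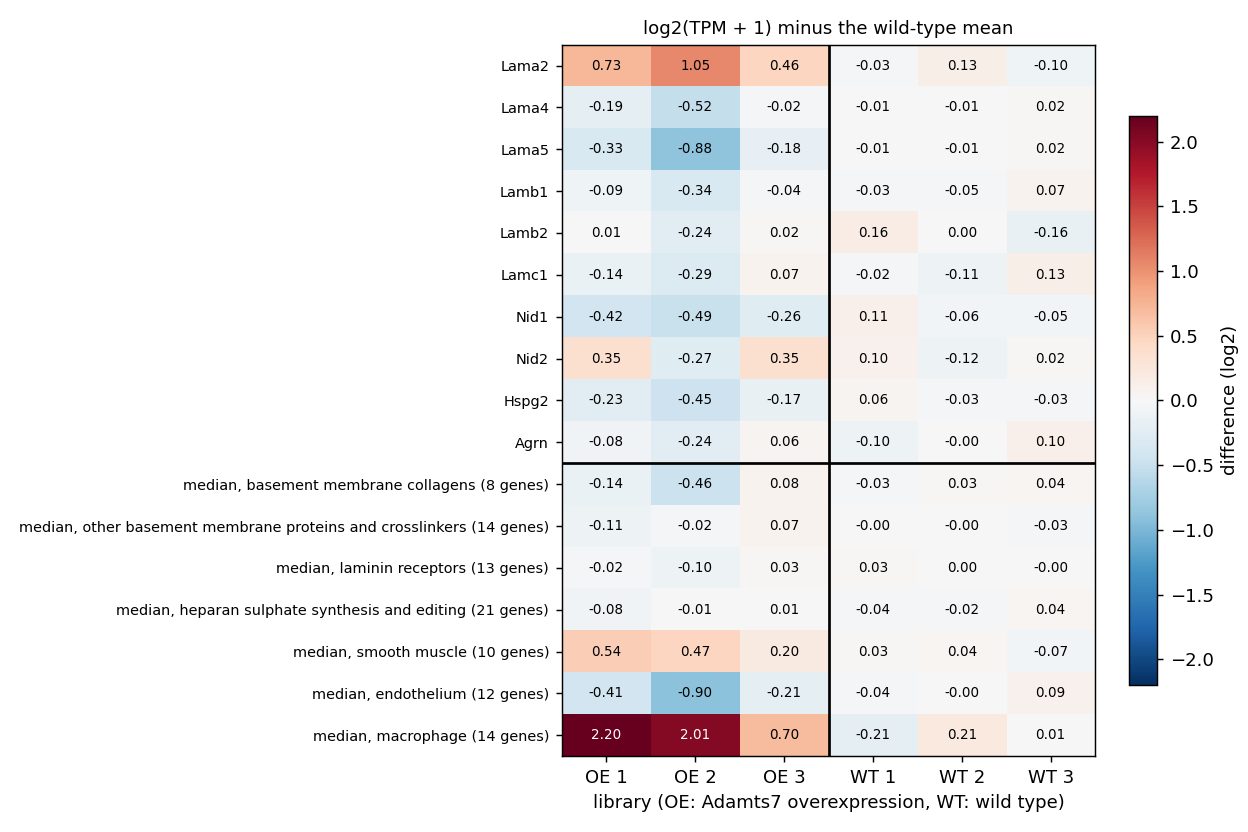
log2(TPM + 1) minus the wild-type mean in each library for the 10 genes (upper rows) and as the median of other gene lists (lower rows, tested genes of each list), overexpression (OE) left of wild type (WT); the number in each cell is the value. Overexpression replicate 2 has the lowest value of the 6 libraries for 9 of the 10 genes and for the medians of the basement membrane collagens, the laminin receptors and the endothelial markers, and the highest for Lama2.

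Other basement membrane genes were mixed in direction, and none passed an adjusted p of 0.05 by limma. Among the 8 collagen genes of basement membranes, 2 were lower at an unadjusted p under 0.05 and 0 higher, with a median log2 fold change of -0.22. At that p, 10.6% of all genes tested were higher and 8.94% lower, and the counts in this and the following lists stand beside these shares. With libraries weighted by quality 19.2% of all genes were higher and 18.3% lower, and without overexpression replicate 3 the shares were 11.9% for higher and 13.8% for lower. Without any 1 of the other 5 libraries, 7.55% to 9.39% were higher and 5.25% to 6.74% lower. Col4a1, a chain of the collagen IV network, averaged 739 ± 139 TPM in overexpression and 909 ± 38.2 TPM in wild-type cultures (log2 fold change -0.32), Col4a2 277 TPM in overexpression and 305 TPM in wild-type cultures (-0.16) and Col18a1, the source of endostatin, 74.1 TPM in overexpression and 89.9 TPM in wild-type cultures (-0.28). The count of lower collagen genes was 4 without overexpression replicate 3, 1 without wild-type replicate 1, and 0 without any 1 of the other 4 libraries. In that list 1 was higher without overexpression replicate 1, without replicate 3 and with libraries weighted by quality.

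Of 14 tested genes of other basement membrane and linked matrix proteins, 6 were higher and 2 lower at an unadjusted p under 0.05, with a median of -0.07. Without wild-type replicate 3 the count was 3 higher, without wild-type replicate 1 it was 1 lower, and with libraries weighted by quality it was 5 lower. Fbln2, an elastic fibre protein that binds laminin and nidogen, averaged 935 ± 169 TPM in overexpression and 595 ± 45.1 TPM in wild-type cultures, and Smoc1, of the SPARC family, 169 ± 6.93 TPM in overexpression and 137 ± 4.23 TPM in wild-type cultures (log2 fold changes 0.64 and 0.30). Sparc itself averaged 1947 TPM in overexpression and 2001 TPM in wild-type cultures (-0.04).

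Of the 13 laminin receptor genes, 4 were higher at an unadjusted p under 0.05 and 0 lower, with a median of -0.03. Without wild-type replicate 2 the count was 2 higher, without overexpression replicate 2 it was 1 lower, without overexpression replicate 3 it was 3 lower, and with libraries weighted by quality it was 2 lower. It was 1 lower with a mean of at least 5 TPM, median-of-ratios scaling, quantile normalization, no mitochondrial genes, or the replicate block. Itgb4, an integrin subunit gene, averaged 49.7 ± 17.2 TPM in overexpression and 70.4 ± 3.22 TPM in wild-type cultures. Its log2 fold change was -0.56 (limma unadjusted p = 0.0509, adjusted p = 0.257). Itgb1, the beta subunit of most laminin-binding integrins, stood at 1113, 1075 and 1082 TPM in overexpression libraries, against 936, 930.4 and 942 TPM in wild-type libraries (log2 fold change 0.22 ± 0.05 SE; limma unadjusted p = 0.00360, adjusted p = 0.131). Sdc2, a cell surface heparan sulphate proteoglycan, averaged 72.3 TPM in overexpression and 55.7 TPM in wild-type cultures (0.37), and Rpsa, a ribosomal protein gene also described as a laminin receptor, 2372 TPM in overexpression and 2323 TPM in wild-type cultures (0.02). Dag1, the gene of dystroglycan, which binds laminin and agrin, averaged 118 ± 5.20 TPM in overexpression and 120.4 ± 2.36 TPM in wild-type cultures (95% interval of the log2 fold change -0.17 to 0.11). Among 21 tested genes of the dystroglycan complex and its sugar chain, 1 was higher at an unadjusted p under 0.05, the sarcoglycan gene Sgcd (log2 fold change 0.49), with Sgcb at 0.17 and Sgce at -0.16. In that list 2 were higher without overexpression replicate 3 or without wild-type replicate 2, 1 was lower without overexpression replicate 1 or without replicate 3, and 5 were higher with libraries weighted by quality. In the pathway of agrin at the nerve-muscle synapse, Lrp4, its receptor, averaged 1.07 TPM in overexpression and 0.938 TPM in wild-type cultures, and Rapsn, a scaffold of that synapse, 2.84 TPM in overexpression and 2.16 TPM in wild-type cultures, and Musk and Dok7 were too low to be tested.

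Heparan sulphate is the sugar chain of perlecan and agrin. Of the 21 tested genes of its synthesis and editing, 0 were higher or lower at an unadjusted p under 0.05, with a median of -0.05. In that list 4 were lower without overexpression replicate 3, and 1 was higher and 3 lower with libraries weighted by quality. The sulphatase gene Sulf1 averaged 485 ± 100.2 TPM in overexpression and 545 ± 15.0 TPM in wild-type cultures, Sulf2 173 TPM in overexpression and 179 TPM in wild-type cultures, the sulphotransferase gene Ndst1 59.0 TPM in overexpression and 65.7 TPM in wild-type cultures, and the polymerase gene Ext2 138 TPM in overexpression and 155 TPM in wild-type cultures. Of the 15 tested genes of proteases that can cut these proteins, 3 were higher and 0 lower at that p, with a median of 0.04. In that list 1 was lower without overexpression replicate 3, 1 without wild-type replicate 1, where 2 were higher in place of 3, and 2 with libraries weighted by quality. Mmp14, a membrane-bound metalloprotease, stood at 165, 183 and 152 TPM in overexpression libraries, against 133, 136 and 138 TPM in wild-type libraries (log2 fold change 0.29; limma adjusted p = 0.140). The cathepsin genes Ctss and Ctsb had log2 fold changes of 1.94 and 0.44, and Ctsl -0.04. The macrophage markers were also higher in overexpression libraries, and the cell source of cathepsin RNA was not tested.

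Patterns were also compared between genes, over the 6 libraries and among 104 other genes of the lists on basement membrane genes, with genotype differences included in the correlation. Lama4 and Lama5 were each most like Itgb4, the beta subunit of the integrin of hemidesmosomes (Pearson r = 0.988 for each). Lama2 was most like Fbln2 (0.995) and Hspg2 most like Fbln1 (0.992). Nid1 was most like Hspg2 (0.956), Lamb1 most like Lama4 (0.959), Lamc1 most like Vwa1 (0.976), Lamb2 most like Dag1 (0.911), Nid2 most like Tll1 (0.947) and Agrn most like B4gat1 (0.964). With 6 libraries and many candidates, a high r describes these libraries only.

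**Figure D5:**
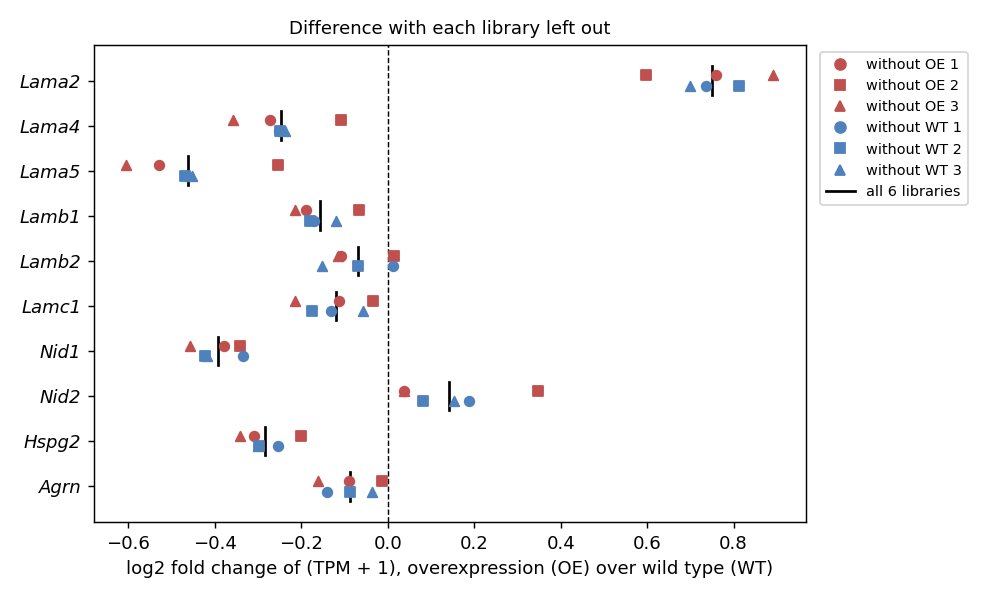
log2 fold change of (TPM + 1), overexpression (OE) over wild type (WT), for each gene with all 6 libraries (black line) and with each library left out in turn (points; colour gives the genotype and shape the replicate left out). Leaving out overexpression replicate 2 moves Lama2, Lama4, Lama5, Lamb1, Lamc1, Hspg2 and Agrn nearest to 0, and Lamb2 is the only gene of the 10 whose points lie on both sides of 0.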

How the data were processed

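For RNA, the authors deposited a single table of TPM, 1 value per gene and library. Per the labels it holds kallisto output, and its columns each total 1000000. The submitters' processing notes name mm10; kallisto's version, the transcript set and how transcripts were summed are not given in the sources used. TPM are relative and estimated, so abundant genes that differ shift all others, and depth and counting error cannot be had. The deposited table of ATAC-seq footprint scores gives no value per gene and was not used.

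Groups follow the genotype label; all libraries carry 1 batch label. Log2(TPM + 1) values of genes averaging 1 TPM or more were tested with limma 3.58.1 (lmFit, eBayes with trend) in R 4.3.3, two-sided, Benjamini-Hochberg adjusted over 13131 genes, threshold 0.05; this scale understates changes of low genes. The test was checked on simulated data. Named genes are the 10, Adamts7, and in each list the 2 most abundant and the 2 of smallest p. The gene most like each of the 10 was also named. Sox10, Notch3 and genes too low to test were added. The members, lists, motifs and tests were chosen with earlier results of these data known. Promoters and positions came from RefSeq tables of GRCm38.p6, with 7 of 10 genes in the promoter table. Alternatives changed the pseudocount, filter, scaling, library weights, variance trend, replicate block and libraries used.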

Additional observations from a re-analysis of the deposited data

How the results depend on the processing

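All 16 alternatives kept the sign of the log2 fold change of 9 of the 10 genes; Lamb2 was at 0.026 with libraries weighted by quality and above 0 without overexpression replicate 2 and without wild-type replicate 1, with a range of -0.15 to 0.015 over the libraries left out in turn. The count of genes past an adjusted p of 0.05 was 0 of 10 under 14 of them. With libraries weighted by quality, 1 was higher (Lama2, limma adjusted p = 0.00629) and 3 were lower (Nid1 at 0.00610, Hspg2 at 0.0181 and Lama5 at 0.0307). At an unadjusted p under 0.05, 2 of the 10 were higher and 4 lower in that fit. Of all genes tested, 19.2% were higher and 18.3% lower at that p, and 2728 passed the adjusted threshold. That fit gave overexpression replicate 1 a weight of 5.66 and replicate 2 a weight of 0.278. With each library left out in turn, 0 to 1 of the 10 genes were higher and 0 to 1 lower at an adjusted p under 0.05 (Lama2 and Nid1, without overexpression replicate 3), 1 to 2 were higher at an unadjusted p under 0.05, and 1 to 828 of all genes passed. Nid1 and Hspg2 stayed lower at an unadjusted p under 0.05 whichever library was left out. Lama5 did not without any 1 wild-type library, and Lama4 was lower at that p only without overexpression replicate 3. Of all genes tested, 11.9% were higher and 13.8% lower at that p without overexpression replicate 3. Without any 1 of the other libraries, 7.55% to 9.39% were higher and 5.25% to 6.74% lower. Of all genes, 1 passed with a mean of at least 5 TPM and 1 with the replicate block. The replicate block changed no call among the 10. Same-numbered libraries had correlations of deviations of -0.02, 0.06 and 0.02. These values show no pairing by number, though 3 libraries per genotype cannot exclude it. The median of the 10 genes ranged from -0.22 without overexpression replicate 3 to -0.05 without overexpression replicate 2. The share of Lama4 in alpha chain TPM, overexpression minus wild type, was -0.53 percentage points with all libraries and 0.028 without overexpression replicate 2 (-1.27 to 0.028 over the libraries left out), and that of Lamb2 in beta1 and beta2 TPM was 1.43 with all libraries and -0.55 without wild-type replicate 3 (-0.55 to 3.03); the cause was not tested. Leaving out libraries for the Lama2 and Lama5 shares was chosen after seeing the data and gave 4.83 to 10.2 and -8.64 to -4.60 percentage points. Scaling was not run for these shares, as a factor for a whole library leaves them as they are. No scaling moved the median of all genes by 0.1 on the log2 scale. Depth is unknown and 3 libraries per genotype limit precision.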
